A study of Homo sapiens with 4 samples.

Results

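Chromosome 10 was examined for its contact with the nuclear lamina in LNCaP and VCaP cells, as read from lamin B1 chromatin immunoprecipitation and sequencing (ChIP-seq). Its members are all 40 kb bins of the chromosome with a deposited value in both lines, 3286 of the 71436 such bins of the genome (4.60%). The chromosome itself was selected on its measured agreement between the lines, so the correlations and overlaps given here for the whole chromosome describe that choice and support nothing. Both are established human cell lines, LNCaP labelled as prostate adenocarcinoma and VCaP as prostate cancer metastatic to bone. Both were grown without any treatment named in the labels, LNCaP in RPMI and VCaP in DMEM F12:Ham, each with fetal bovine serum, and were fixed with formaldehyde. Each line gave 1 library from the lamin B1 immunoprecipitation and 1 input library made without antibody, 4 in all. With 1 library per group no difference between the lines could be tested, and every comparison is of these libraries and not of the cell lines.

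The nuclear lamina is a meshwork of lamin filaments lining the inner face of the nuclear envelope, and lamin B1 is one of its permanent components. Chromatin that touches it forms lamina-associated domains, long stretches that in most cell types are poor in genes, replicate late and are transcribed little. Some of these domains are found in nearly every cell type, and others differ from one cell type to the next. No gene was placed on the bins, because the gene table at hand is of another genome build.

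A value is the log2 enrichment of ChIP over input. How the libraries were scaled is not given in the sources used here, so the zero point is that of the deposited values and need not mean equal representation or be the same in both lines. The deposited model gives each bin 1 of 2 states, and the state with the higher enrichment is called associated. Coordinates are in hg19 and count from 1. The bins ran from 80001 to 135480000 and were divided into arms at the longest stretch without 40 kb bins, from 39160001 to 42320000, which left 974 bins on the short arm and 2312 on the long arm. The noise of a bin, taken from bins 3 apart, which share no averaged entry, had an SD of 0.15 in LNCaP and 0.23 in VCaP on chromosome 10. Such differences also hold any real change over that distance, so these SDs may overstate the noise. Neighbouring bins, which share averaged entries, gave smaller SDs of 0.07 and 0.11, and with the mean undone they gave 0.18 and 0.28. The number of reads behind each value is unknown. The errors given for regions are standard errors (SE) over the bins of a region, counting 3 bins as 1 value because each deposited value averages 3 entries. Bins 120 kb apart still correlated at 0.735 in LNCaP and 0.597 in VCaP, so these errors are too small and hold no spread between libraries.

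Associated and unassociated bins were about equally frequent on chromosome 10 in either line. In LNCaP 48.7% of its bins were associated, against 37.9% of all bins of the genome, and in VCaP 49.3%, against 44.4%. The median log2 enrichment was 0.15 in LNCaP (interquartile range -0.04 to 0.38) and 0.26 in VCaP (-0.04 to 0.54), where the genome had medians of 0.06 and 0.19. Both lines were thus above their own genome median on this chromosome. The share differed between the lines by less than 1 percentage point.

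By the deposited states the arms differed more in LNCaP than in VCaP. On the short arm 38.6% of bins were associated in LNCaP and 46.6% in VCaP. On the long arm the shares were 52.9% and 50.4%, so the line with the larger share changed from arm to arm. The median enrichment was 0.11 in LNCaP and 0.24 in VCaP on the short arm, and 0.18 and 0.26 on the long arm. These shares depend on single stretches: with each 10 Mb block left out in turn the short arm ranged from 33.3% to 44.9% in LNCaP and from 40.6% to 52.1% in VCaP. The long arm ranged from 48.5% to 57.2% in LNCaP and from 46.4% to 55.1% in VCaP. The ranges of the lines overlapped on both arms. Each omission takes the same block from both lines, so this overlap cannot tell whether their order changes. The order was not compared block by block. The contrast of the arms rests on the state definition. With enrichment over 0 counted as associated, the short and long arm had 69.7% and 70.5% in LNCaP and 76.1% and 70.3% in VCaP, so that the arms differed more in VCaP. A running median of 5 bins over 0 gave 71.5% and 71.2% in LNCaP and 77.2% and 71.8% in VCaP.

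Each arm was cut into 3 parts with equal numbers of bins. On both arms the part at the chromosome end was the most associated in both lines. The middle part was the least associated in LNCaP on both arms, whereas in VCaP that was the part next to the centromere. The end of the long arm, from 104520001 to 135480000, was associated in 79.4% of bins in LNCaP and 70.2% in VCaP, with both lines associated in 62.3%. The middle of the long arm, from 73720001 to 104520000, had 26.5% in LNCaP and 46.4% in VCaP, with 14.4% shared. Next to the centromere, from 42320001 to 73720000, LNCaP had 52.9% and VCaP 34.8%. The end of the short arm, from 80001 to 13080000, had 55.1% in LNCaP and 62.8% in VCaP. The middle of the short arm had 20.4% and 41.4%, and the part next to the centromere 40.3% and 35.7%.

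**Figure D1:**
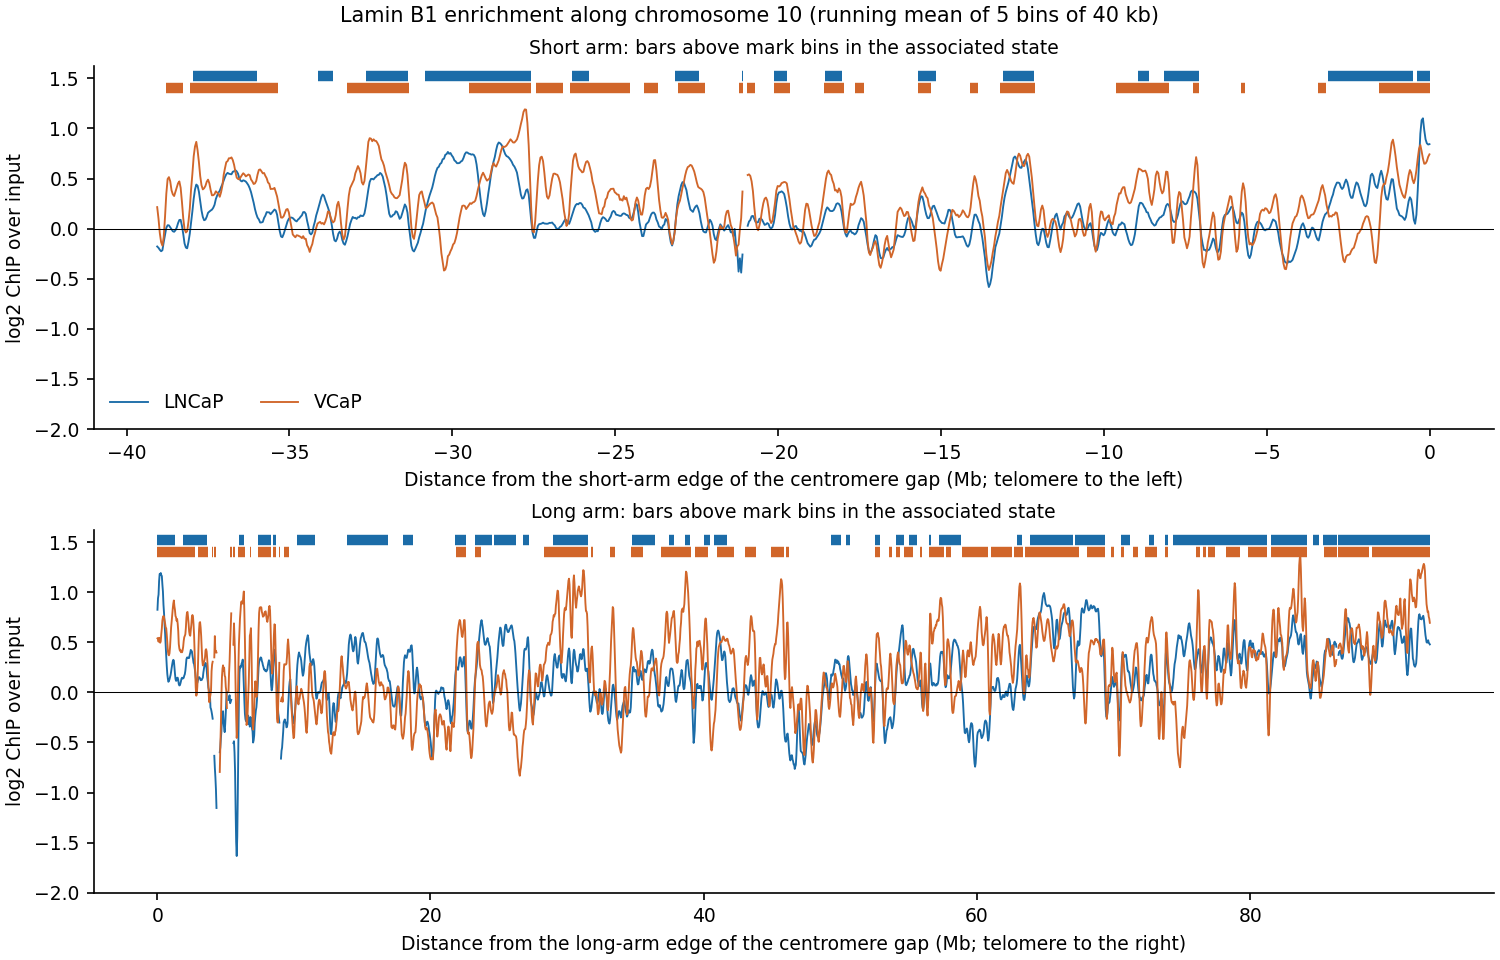
Log2 enrichment of lamin B1 ChIP over input along the short arm (top) and the long arm (bottom) in LNCaP (blue) and VCaP (orange), as running means of 5 bins, against distance in Mb from the edge of the centromere gap; bars above mark bins in the associated state. The long-arm end carries nearly unbroken bars in both lines, and the stretch from about 14 to 28 Mb of the long arm carries mostly LNCaP bars.

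The bins of chromosome 10 fell into 4 classes by their states. Both lines were associated in 1063 bins (32.3%), against 20.6% of all bins of the genome. Neither line was associated in 1129 bins (34.4%, genome 38.4%). LNCaP alone was associated in 537 bins (16.3%, genome 17.2%) and VCaP alone in 557 (17.0%, genome 23.8%). Of the bins associated in LNCaP 66.4% were also associated in VCaP (genome 54.5%). Of those associated in VCaP 65.6% were also associated in LNCaP (genome 46.5%). The lines had the same state in 66.7% of bins (genome 59%), 69.8% on the short arm and 65.4% on the long arm.

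The agreement that singled out this chromosome is high among chromosomes but moderate in size. Across its bins the lines correlated with a Pearson r of 0.450 and a Spearman rho of 0.451, which is a correlation across neighbouring, averaged bins of the same 4 libraries. The Pearson r of the other 23 chromosomes ran from 0.144 to 0.503 with a median of 0.273, and 2 of them were higher, chromosome Y and, by less than the third decimal, chromosome 16. The bins associated in both made up 49.3% of those associated in either, and 1 other chromosome, chromosome 16, had a larger overlap. Cohen's kappa, which discounts the agreement that the 2 shares alone would give, was 0.334, and 3 of the other chromosomes were higher. On the short arm r was 0.50 and kappa 0.387, and on the long arm 0.437 and 0.308.

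The agreement of chromosome 10 held at long as well as at short range. Averaged over windows of 200 kb, 1 Mb and 5 Mb, the lines correlated at 0.435 (658 windows), 0.406 (132 windows) and 0.460 (27 windows). With the mean of each 5 Mb window subtracted from its bins, the remaining short-range pattern correlated at 0.448. On chromosome 11, which has the same number of bins, the short-range value was 0.474 while the means of 5 Mb windows correlated at -0.341. On chromosome 9 these values were 0.334 and -0.294, and on chromosome 12 they were 0.487 and 0.323. Of the other 23 chromosomes 7 exceeded chromosome 10 in the short-range value and 2 in the value between windows, chromosomes 16 and Y, with 16 and 4 windows. Against the 12 other chromosomes with at least 20 windows, chromosome 10 had the highest correlation of window means, with 0.458 on chromosome 8 and 0.450 on chromosome 4 next to it. Differences of that size were not tested.

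**Figure D2:**
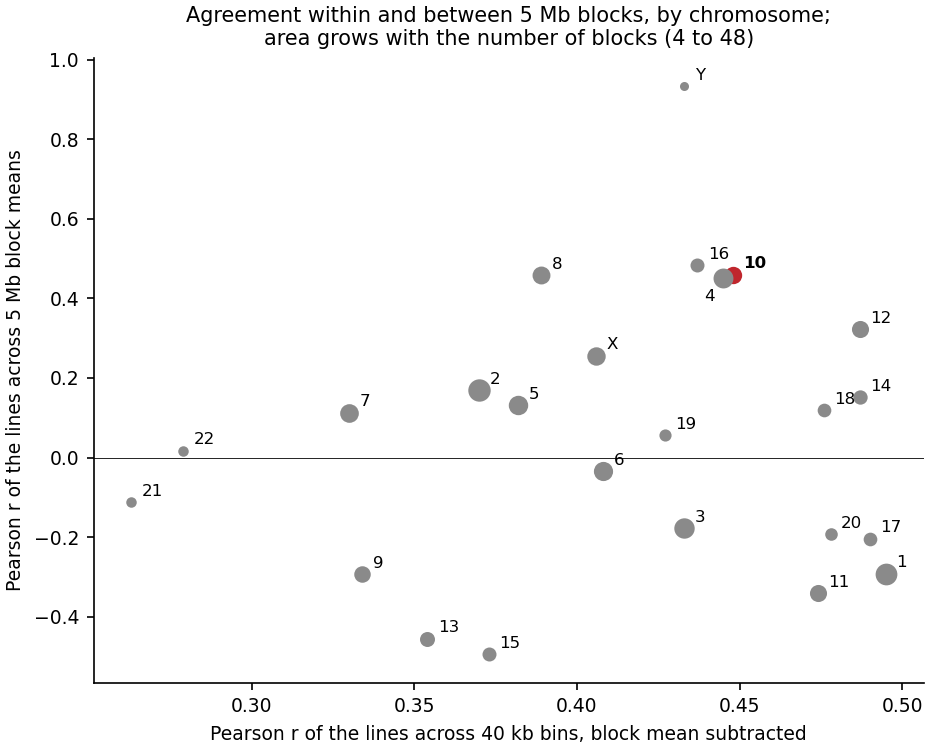
Each point is a chromosome, placed by the Pearson r of LNCaP and VCaP across 40 kb bins after subtracting the mean of each 5 Mb block (x axis) and by the r across 5 Mb block means (y axis); larger points have more blocks. Chromosome 10 (red) lies at 0.448 and 0.460, beside chromosome 4, whereas chromosomes 1 and 11 reach a higher x value with block means that correlate below 0.

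The match between the lines was also local. Shifting VCaP against LNCaP by 40 kb lowered r from 0.450 to 0.412 or 0.410, depending on the direction. A shift of 120 kb lowered it to 0.273 in either direction, and a shift of 1 Mb to 0.102 or 0.148. The values therefore matched best with no shift.

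Correlations within the 4 classes are descriptions only, since the classes come from states called on the same values, which narrows the range in each class and selects on disagreement in the single-line ones. Among bins associated in neither line the enrichment of LNCaP and VCaP correlated at 0.490, so that the bins most depleted in one tended to be depleted in the other. Among bins associated in both the correlation was 0.252. It was 0.0227 in LNCaP-only and 0.0744 in VCaP-only bins. The tails show the same order: of the 329 bins with the lowest enrichment in LNCaP, 124 (37.7%) were also among the 329 lowest in VCaP, whereas 93 of the 329 highest (28.3%) were shared. Of the lowest bins in LNCaP 18 were among the highest in VCaP, and 11 of the highest among the lowest. Each tail is 10% of the bins, which is also the share that unrelated orders would have in common on average. The tails were not counted over the genome, so nothing here is particular to chromosome 10.

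The state borders of one line could be read in the values of the other, which did not set them. Chromosome 10 held 96 LNCaP borders, of which 94 had 10 bins on each side. At 77 of these 94 (81.9%) VCaP was higher inside than outside the LNCaP domain, against 78.4% of all LNCaP borders of the genome. The median step of the 10 bins inside over the 10 bins outside was 0.32 in LNCaP and 0.28 in VCaP. Of 118 VCaP borders with enough bins, LNCaP stepped the same way at 87 (73.7%, genome 75.3%), with a median step of 0.41 in VCaP and 0.14 in LNCaP. These shares are close to the genome's. Exact positions coincided more rarely: 28 of the 96 LNCaP borders (29.2%, genome 18.9%) lay within 1 bin of a VCaP border of the same direction, and these make up 21.4% of the 131 VCaP borders (genome 14.9%). Chromosome 11 had 26.7% and chromosome 12 had 5.06% of LNCaP borders within 1 bin.

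**Figure D3:**
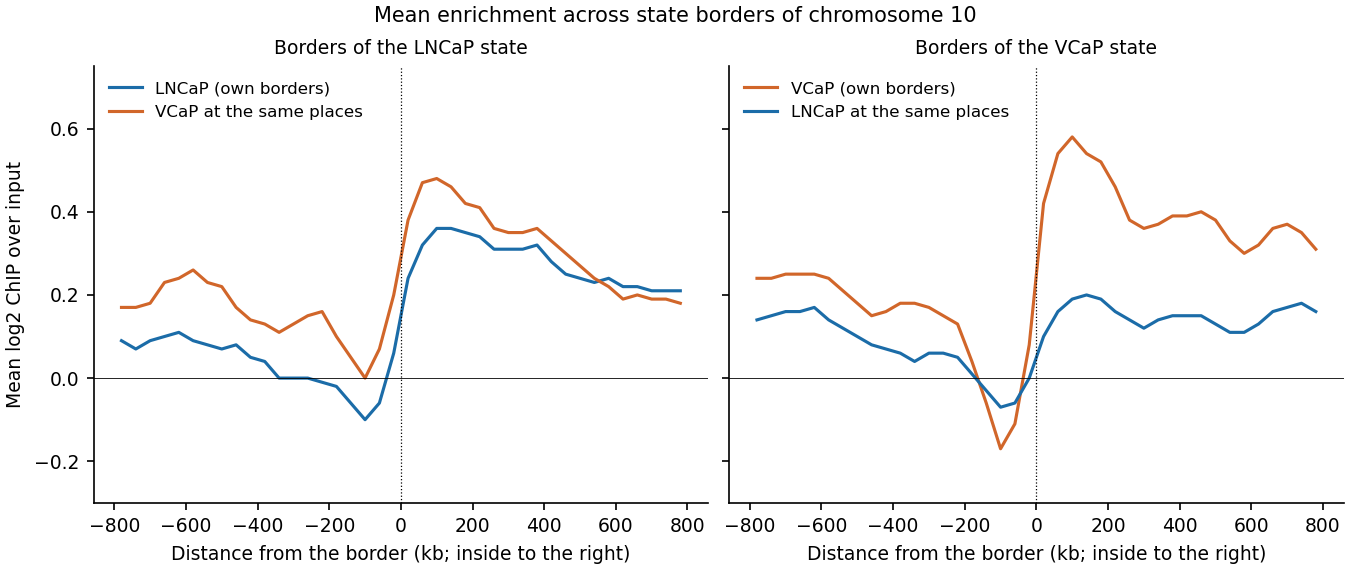
Mean log2 enrichment in 40 kb bins up to 800 kb outside (left) and inside (right) the state borders of LNCaP (left panel, 96 borders) and VCaP (right panel, 131 borders), in the line that set the border and in the other line. In both panels the other line also steps up at the border, from 0.00 to 0.48 between 100 kb outside and 100 kb inside at LNCaP borders, and from -0.07 to 0.19 at VCaP borders.

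Domains shared by both lines were defined as stretches of 5 or more neighbouring bins with both lines in that state. There were 48, which held 1053 of the 1063 shared bins and covered 42.1 Mb, with a median length of 520 kb. The short arm had 13 and the long arm 35, and 13 were 1 Mb or longer. The median of their mean enrichment was 0.37 in LNCaP and 0.60 in VCaP. VCaP was higher in 42 of the 48, but in 26 once the lines were quantile normalized to each other, which removes the 0.13 by which the VCaP genome median lies above that of LNCaP. Over all 48 shared domains the level in one line said little about the level in the other, with means that correlated at 0.0706. The means correlated at 0.581 over the 13 of the short arm and at -0.0944 over the 35 of the long arm. Choosing domains by the states of both lines narrows the range of levels, so these correlations are descriptions only.

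The largest shared stretch was the end of the long arm. From 131200001 to 135480000, the last 40 kb bin of the chromosome, 107 bins were associated in both lines and averaged 0.53 in LNCaP against 0.80 in VCaP. A further 56 bins from 128760001 to 131000000 had means of 0.47 and 0.54, and 65 bins from 123840001 to 126440000 had 0.48 and 0.72. In LNCaP the bins from 128760001 to 135480000 formed 1 domain of 6.72 Mb. VCaP broke it once, from 131000001 to 131200000, where its mean was -0.03 and that of LNCaP 0.29. Enrichment there was high in both lines, with 100% of LNCaP and 96.0% of VCaP bins associated between 130 and 135 Mb. The 6.72 Mb LNCaP domain starts at a 120 kb entry left out for its width, from 128640001 to 128760000, associated in both lines. LNCaP bins before that entry, from 127640001 to 128640000, were also associated, so this start is no state border.

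The other long shared domains of the long arm differed in which line was higher. From 106200001 to 109320000, 78 bins averaged 0.70 in LNCaP against 0.61 in VCaP, and VCaP minus LNCaP was -0.09 ± 0.04 (SE over bins). From 71280001 to 73880000, 65 bins averaged 0.28 in LNCaP against 0.87 in VCaP, and the same difference was 0.58 ± 0.05. Against the medians of 0.37 and 0.60 over shared domains, this domain was low in LNCaP and high in VCaP. The short domain from 80960001 to 81280000 (8 bins) had the highest VCaP mean of all shared domains, 1.10, with 0.29 in LNCaP. It had the highest mean over both lines on the long arm. After quantile normalization the differences of these 3 domains were -0.31, 0.38 and 0.58, so the order of the lines was kept.

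On the short arm the 5 longest shared domains had means of 0.31 to 0.55 in LNCaP and 0.53 to 0.71 in VCaP. From 1200001 to 3160000 (49 bins) the means were 0.38 and 0.53, and from 6520001 to 7800000 (32 bins) 0.33 and 0.62. From 9680001 to 11560000 (47 bins) they were 0.55 and 0.71, the highest of the 5 in both lines. From 37600001 to 38640000 (26 bins) and from 26040001 to 27000000 (24 bins) the means were 0.31 and 0.53, and 0.54 and 0.59. Within the domain at 6520001 the bins of the lines followed each other with an r of 0.805, whereas within that at 9680001 r was -0.118. Matching states therefore did not always come with matching shapes.

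The shared domain beside the centromere on the short arm had the highest LNCaP mean of all regions. From 38760001 to 39160000, its 10 bins averaged 0.90 in LNCaP, with single bins up to 1.31, and 0.75 in VCaP. Of these bins 5 lie beside the gap. On the long-arm side the shared domain from 42320001 to 43640000 (33 bins) had means of 0.57 and 0.63, and the highest single value of LNCaP on the chromosome, 1.35, fell in its bin from 42640001 to 42680000, where VCaP had 0.59. The highest single value of VCaP, 1.73, was in the bin from 125960001 to 126000000 near the end of the long arm, with 0.65 in LNCaP.

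The regions outside the associated state in both lines numbered 55 and covered 43.6 Mb, 16.2 Mb on the short arm and 27.4 Mb on the long arm. The 2 longest held 77 bins each. From 61040001 to 64120000 the mean was -0.13 in LNCaP and -0.33 in VCaP, and from 88560001 to 91640000 it was -0.37 and -0.20. The next were 62 bins from 27040001 to 29520000 (0.01 and 0.03), 59 bins from 53880001 to 56240000 (-0.04 and -0.15) and 56 bins from 33480001 to 35720000 (-0.10 and 0.07). Within each of these 5 regions the bins of the lines correlated, at 0.490 to 0.710. The bins of both lines thus varied together inside stretches that the model leaves unassociated.

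**Figure D4:**
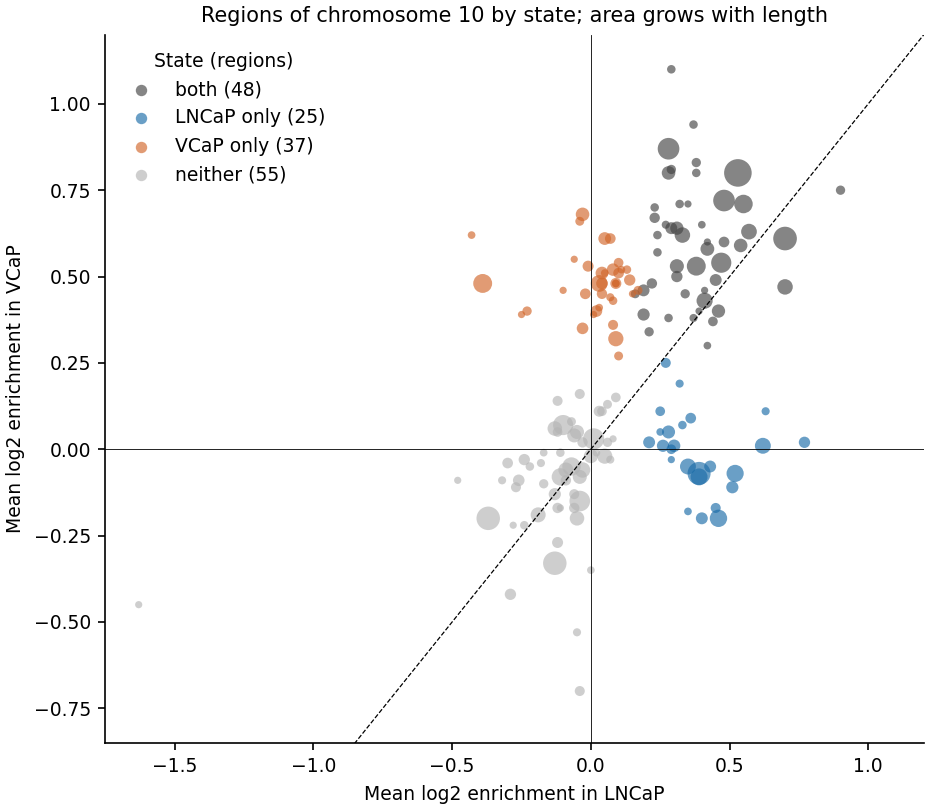
Mean log2 enrichment of LNCaP (x axis) and VCaP (y axis) in each run of at least 5 adjacent bins of chromosome 10 with the same pair of states; area grows with length, and the dashed line marks equal values. The 25 LNCaP-only regions lie below the line and the 37 VCaP-only regions above it, which the choice by state favours, while the means of the 48 shared domains correlate at 0.0706.

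Bins past a difference of 0.5 on the log2 scale were counted as differing. VCaP was higher by more than that in 441 bins (13.4%), against 21.3% of all bins of the genome, and LNCaP in 247 bins (7.52%), against 9.33%. Both shares were below the genome's. The long arm held 377 and 198 of these bins, 16.3% and 8.56% of the arm, and the short arm 64 and 49, 6.57% and 5.03%. The split depends on the zero point of each line: centred on their genome medians, the counts were 227 with VCaP higher and 404 with LNCaP higher, and after quantile normalization 211 and 389. The median difference on chromosome 10 was 0.11 as deposited and -0.03 after either step. A bin's difference had an SD of 0.19, taken from bins 3 apart, which holds noise and any real change over that distance.

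LNCaP alone was associated in 25 regions of at least 5 bins, 4 on the short arm and 21 on the long arm. They covered 20.4 Mb, and 9 of them differed by more than 0.5. Several lay close together on the long arm. Between 55 and 60 Mb LNCaP was associated in 59.2% of bins and VCaP in 0%, and between 65 and 70 Mb in 66.4% and 8.80%. The longest of these regions, from 56240001 to 59200000, had 74 bins that averaged 0.39 in LNCaP against -0.07 in VCaP, so that VCaP minus LNCaP was -0.46 ± 0.04, and LNCaP was higher in all 74. Nearby, 19 bins from 66040001 to 66800000 had means of 0.51 and -0.11, 40 bins from 67000001 to 68600000 had 0.52 and -0.07, and 12 bins from 69080001 to 69560000 had 0.45 and -0.17. Their differences were -0.62 ± 0.06, -0.59 ± 0.09 and -0.63 ± 0.12. In these regions the VCaP mean was thus below 0 on the deposited scale and the LNCaP mean above 0.37, the LNCaP median over shared domains. This holds for means only: in the longest region single bins went down to 0.02 in LNCaP and up to 0.35 in VCaP. The 3 further LNCaP-only regions past 0.5 held 6 to 18 bins and differed by -0.59 to -0.52.

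Farther out on the long arm many LNCaP-only regions lay next to shared domains. Those from 91640001 to 92400000, from 92760001 to 93040000 and from 126880001 to 127360000 did not. The region at 66040001, nearer the centromere, also adjoined a shared domain. The largest difference of the LNCaP-only regions was from 109760001 to 110400000, where 16 bins averaged 0.77 in LNCaP against 0.02 in VCaP and differed by -0.75 ± 0.17. Shared domains lie directly on both sides of it, from 109520001 to 109760000 and from 110400001 to 111680000, so VCaP showed a notch in what LNCaP had as 1 domain of 2.16 Mb. The region from 116680001 to 118320000 had 41 bins with means of 0.46 and -0.20, a difference of -0.67 ± 0.10. It opened a LNCaP domain of 6.88 Mb from 116680001 to 123560000, of which VCaP shared 50.6% of bins. In LNCaP this was the longest unbroken run of associated 40 kb bins on the chromosome. With the omitted associated entry at 128640001 counted, the LNCaP run at the end of the arm would be longer. On the short arm 34 bins from 8320001 to 9680000 had means of 0.62 and 0.01, a difference of -0.60 ± 0.11. There LNCaP had 1 domain of 3.24 Mb up to 11560000, and VCaP joined it at 9680001.

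VCaP alone was associated in 37 regions, 13 on the short arm and 24 on the long arm, which covered 20.0 Mb. Of these, 11 differed by more than 0.5, all on the long arm. The longest, from 101200001 to 103160000, had 49 bins that averaged -0.39 in LNCaP against 0.48 in VCaP and differed by 0.88 ± 0.06, and VCaP was higher in all 49. The LNCaP bins there ran from -0.98 to 0.09, against a LNCaP median of 0.15 on the chromosome. The next, from 103360001 to 104880000, had 38 bins with means of 0.03 and 0.48, a difference of 0.46 ± 0.06. The largest difference was in a short region of 6 bins from 88320001 to 88560000, with means of -0.43 and 0.62 and a difference of 1.06 ± 0.16. Just before it, 24 bins from 87240001 to 88200000 had -0.03 and 0.68.

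Among the 6 largest VCaP-only differences were 3 more regions, of 5 to 10 bins. Means were -0.04 in LNCaP and 0.66 in VCaP over 9 bins from 75440001 to 75800000. They were -0.23 and 0.40 over 10 bins from 51600001 to 52000000, and -0.25 and 0.39 over 5 bins from 95880001 to 96080000. The differences of these 3 were 0.69 ± 0.07, 0.63 ± 0.15 and 0.63 ± 0.08. The 5 further regions past 0.5 held 5 to 21 bins and differed by 0.54 to 0.61. On the short arm the longest VCaP-only region had 31 bins from 13360001 to 14600000, with 0.09 and 0.32, and its difference of 0.23 fell to 0.08 after quantile normalization. All 25 LNCaP-only and all 37 VCaP-only regions kept the sign of their difference after that step, but the states that chose them come from the same values, so the direction was largely set by the choice.

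In 5 Mb blocks the correlation was below 0 in 2 places, and the states differed in most bins of 4. Among the 27 blocks with at least 60 bins the median r was 0.503, and 14 blocks were over 0.5. The highest values were 0.803 between 70 and 75 Mb, 0.785 between 25 and 30 Mb and 0.724 in the block from 120000001 to 125000000. In the first of these VCaP was associated in 69.6% and LNCaP in 52.0% of bins, and every LNCaP bin was shared. The lowest values were -0.249 between 100 and 105 Mb, -0.0255 between 5 and 10 Mb and 0.185 between 40 and 45 Mb. Between 100 and 105 Mb the lines had the same state in 15.2% of bins, LNCaP with 22.4% associated and VCaP with 76.8%. The states matched in 40.8% of bins between 55 and 60 Mb, 42.4% between 65 and 70 Mb and 48.8% between 80 and 85 Mb, where r was 0.452, 0.503 and 0.423. Levels there followed each other within the block while the states differed. Between 40 and 45 Mb all 67 bins were associated in VCaP and 79.1% in LNCaP. The states matched in 79.1% of bins there, which is the LNCaP share and would be so wherever the LNCaP bins lay. That match therefore shows no agreement beyond the shares.

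**Figure D5:**
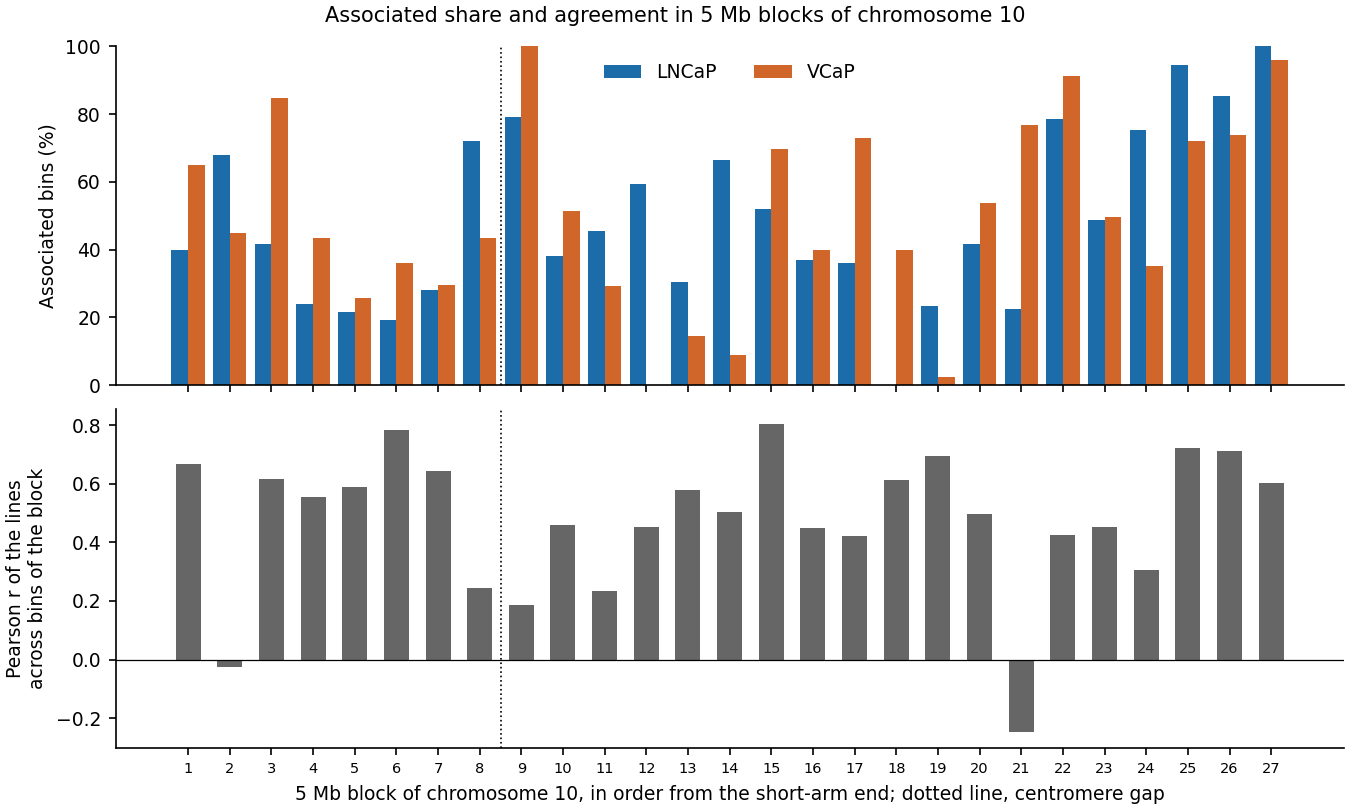
Share of bins in the associated state in LNCaP and VCaP (top) and Pearson r between the lines across the bins of each block (bottom), for the 27 blocks of 5 Mb with at least 60 bins, in order from the short-arm end. The r of block 2 (between 5 and 10 Mb) and block 21 (between 100 and 105 Mb) lies below 0, and VCaP has 0% in block 12 and LNCaP 0% in block 18.

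Seen per line, LNCaP had 49 domains of at least 5 bins with a median length of 760 kb and VCaP 62 with a median of 740 kb. Of the LNCaP domains 21 lay wholly in the associated state of VCaP and 9 had no VCaP-associated bin. Of the VCaP domains 18 lay wholly in that of LNCaP and 18 had no LNCaP-associated bin. On the short arm 8 of 14 LNCaP domains were wholly shared, but 3 of 19 VCaP domains. There most VCaP domains extended past those of LNCaP or lay apart from them. VCaP-only bins made up 19.1% of that arm (genome 23.8%) and LNCaP-only bins 11.1% (genome 17.2%). Domains were not counted this way over the genome, so these counts show no trait of chromosome 10 or of its short arm.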

How the data were processed

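The deposited values are log2 fold enrichment, per the labels' names for the tables, and were read as lamin B1 ChIP over input because the labels tie each table to both libraries of a line. The build, hg19, and STAR are named in the submitters' processing notes. How ChIP and input were scaled is not given in the sources used here. The state labels come from a hidden Markov model, per the names of the deposited tables. The deposited log2 values behave as trailing means of 3 entries: undoing that mean brought the median absolute value of entries wider than 40 kb to 0.01 in both lines, from 0.21 in LNCaP and 0.33 in VCaP. Positions therefore lie about 40 kb downstream in both lines alike.

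Of 3293 chromosome 10 entries with a value in both lines, 7 of another width were left out. Regions are runs of at least 5 adjacent bins. Named are the 5 longest and 3 most enriched shared domains per arm, the 5 longest unassociated regions, per direction the 6 regions with the largest difference and the 3 longest, and the 3 blocks with the highest and lowest r. Other stretches, bins and chromosomes were named after their values were seen. The chromosome, measures and rules were chosen with earlier results of these data known. Planned gene lists were not used, since the gene table is of GRCh38. No test was made, as each group has 1 library. Depth is unknown. On simulated states over the 3286 bins, the run finder returned all 61 planted runs. It was given the planted states themselves, so this checks the code only and not the calling of domains from noisy values. On a simulated noisy track the undone mean had a median error of 0.01 on the log2 scale. That track was averaged as an exact mean of 3 entries and undone by the matching formula. The error therefore also checks the code only, and not the recovery of real values. Tables were computed with pandas 2.3.3, numpy 2.4.6 and scipy 1.17.1 under Python 3.11.15, and figures drawn with matplotlib 3.10.9.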

Additional observations from a re-analysis of the deposited data

How the results depend on the processing

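For the 10 results that answer a comparison, 48 values under other settings were obtained. The correlation kept its size under each of its alternatives, from 0.406 in means of 25 bins to 0.471 with a 10 Mb block left out. How the associated state is defined had the largest effect on the shares. With enrichment over 0 they were 70.2% in LNCaP and 72.0% in VCaP with an overlap of 68.2%, and with a running median of 5 bins over 0 they were 71.3% and 73.4% with 90 shared domains. Leaving out a 10 Mb block moved the LNCaP share to as little as 45.3% and the VCaP share to as much as 52.4%. A minimum run of 10 bins left 31 shared domains and 20 VCaP-only regions, by its construction. With the highest 40% of bins of each line taken as associated there were 23 VCaP-only and 33 LNCaP-only regions, which reverses their order from 37 and 25, and 64 shared domains. The median difference turned from 0.11 to -0.03 when the lines were centred and to -0.03 when they were quantile normalized. Bins past the threshold numbered 227 with VCaP higher and 404 with LNCaP higher when centred, 211 and 389 when quantile normalized, and 44 and 27 at a threshold of 1. No paired analysis was possible because a single library stands for every group. The read depth is unknown, and the noise between bins does not include the spread between replicate libraries, which was not measured.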

Other observations

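The lowest LNCaP values of chromosome 10 lay in a short trough near several gaps of the table, a stretch picked with its values in view. Over 5 bins from 48040001 to 48240000 the mean was -1.63 in LNCaP and -0.45 in VCaP, and the lowest bin, from 48120001 to 48160000, had -2.32 and -1.12. It was also among the lowest bins of VCaP. The region lies within 1 Mb of a gap from 47760001 to 47880000. The 2 wide entries of the centromere gap, from 39160001 to 40000000 and from 40000001 to 42320000, carry 0.80 and 0.41 in LNCaP and 0.53 and 0.25 in VCaP with the associated state in both lines. With the mean undone these values were between -0.02 and 0.01, so the deposited ones carry over those of the bins before them.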
